A study of Mus musculus with 12 samples.

Results

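The genes described here are 10 transcription factors that build and maintain photoreceptors: *Crx*, *Otx2*, *Nrl*, *Nr2e3*, *Rorb*, *Neurod1*, *Mef2d*, *Esrrb*, *Prdm1* and *Thrb*. They were taken by gene symbol from a table of 56748 mouse genes, each symbol matched 1 row, and all 10 had reads in all 12 libraries. The libraries came from mice that were all homozygous for Ribo-Tag, an allele that lets Cre recombinase fuse the HA epitope tag to a protein of the ribosome, and that all carried the i75-Rod-Cre transgene, which is active in rods. Control mice had 1 floxed *Pkm2* allele besides Cre and Ribo-Tag, and Rodko mice had 2, so the control mice, which the submitters call wild type, were heterozygotes. *Pkm2* is the splice form of the pyruvate kinase gene *Pkm* that photoreceptors use in glycolysis. Polyadenylated RNA was sequenced from immunoprecipitated polyribosomes (Rod-TRAP, called rods here) and from the retinal lysate before precipitation (called retina here), with 3 libraries for each genotype in each fraction. Tissue was flash-frozen after cycloheximide perfusion. The submitters' design text gives the age as 2 weeks and the methods of the study give 2 months, and litters were combined. The labels do not say whether a library holds 1 animal or a pool, so the p-values measure the spread between these libraries.

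Photoreceptors are made under the control of a small network of transcription factors. *Otx2*, a homeobox gene, starts the photoreceptor programme and is also used in bipolar cells and in the pigment epithelium, and its relative *Crx* then activates most genes of the rod and cone phototransduction machinery. *Rorb*, an orphan nuclear receptor, acts upstream of *Nrl*, the basic leucine zipper factor that directs precursors to become rods, and *Nrl* in turn activates *Nr2e3*, a nuclear receptor that represses cone genes in rods. *Neurod1*, *Mef2d* and *Esrrb* serve the maturation and survival of photoreceptors, *Prdm1* holds back the bipolar fate in young photoreceptor precursors, and the product of *Thrb*, a receptor for thyroid hormone, sets opsin choice in cones.

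CRX and OTX2 recognise the letters TAATCC, and NRL binds sites that contain TGCTGA. Nuclear receptors such as RORB, ESRRB and the thyroid hormone receptor bind sites built around AGGTCA. The 250 bases before each RefSeq start site (build GRCm38.p6, read 5′ to 3′ on the strand of the gene) were searched for these letters on both strands. All 10 genes had an entry, with 16 start sites in all. *Otx2* has 4 of these, and the windows of its starts 1 and 2 overlap. The 16 windows are thus not separate, and their counts were not tested against the shares over all genes. TAATCC or its complement was in 3 of the 16 windows, against 6.25% of 32817 windows of that length over all genes. TGCTGA was in 4 of the 16 (16.1% of all windows) and AGGTCA in 1 (14.0% of all windows). The windows below are those of *Crx*, with TAATCC on the opposite strand at 2 places, of the third *Otx2* start and the first *Thrb* start, which each hold TAATCC once on the opposite strand, of *Neurod1*, with TGCTGA on the opposite strand at 2 adjoining places, and of *Nrl*, the member with the highest level in rods, in which none of the 3 motifs was found. Matched letters are in capitals, and a match is a description of the sequence and not a measured binding site.
Crx (chr7:15879956-15880205, minus strand): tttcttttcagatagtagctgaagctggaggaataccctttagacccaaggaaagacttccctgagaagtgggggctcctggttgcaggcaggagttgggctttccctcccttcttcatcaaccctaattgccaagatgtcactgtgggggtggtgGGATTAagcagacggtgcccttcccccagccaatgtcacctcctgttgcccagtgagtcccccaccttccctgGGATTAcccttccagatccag
Otx2, the third start (chr14:48665110-48665359, minus strand): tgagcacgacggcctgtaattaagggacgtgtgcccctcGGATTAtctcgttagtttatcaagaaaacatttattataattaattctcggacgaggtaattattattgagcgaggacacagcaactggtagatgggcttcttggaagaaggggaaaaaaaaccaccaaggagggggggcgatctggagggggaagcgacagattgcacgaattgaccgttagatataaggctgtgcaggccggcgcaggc
Thrb, first start (chr14:17660710-17660959, plus strand): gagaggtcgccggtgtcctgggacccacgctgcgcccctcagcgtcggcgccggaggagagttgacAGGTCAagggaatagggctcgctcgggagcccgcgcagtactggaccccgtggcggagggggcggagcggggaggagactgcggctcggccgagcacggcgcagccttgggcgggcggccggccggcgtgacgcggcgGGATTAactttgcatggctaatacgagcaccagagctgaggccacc
Neurod1 (chr2:79456637-79456886, minus strand): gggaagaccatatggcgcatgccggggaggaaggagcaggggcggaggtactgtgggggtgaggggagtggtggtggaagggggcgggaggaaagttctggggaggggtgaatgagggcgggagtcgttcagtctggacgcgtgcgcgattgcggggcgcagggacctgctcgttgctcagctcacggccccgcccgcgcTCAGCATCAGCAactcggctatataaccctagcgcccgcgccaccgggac
Nrl (chr14:55524253-55524502, minus strand): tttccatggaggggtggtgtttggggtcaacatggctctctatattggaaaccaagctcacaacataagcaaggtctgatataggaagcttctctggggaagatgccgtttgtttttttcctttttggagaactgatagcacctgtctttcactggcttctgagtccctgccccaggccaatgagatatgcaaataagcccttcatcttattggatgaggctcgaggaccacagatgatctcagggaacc
In the first *Thrb* window the capitals nearer the 5′ end are AGGTCA, and those nearer the start site are the complement of TAATCC.

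The libraries held between 13458890 and 22790074 reads on genes. All 20 genes of a list of rod genes regulated by CRX, NRL and NR2E3 were higher in rods. All 10 Müller glia, 10 amacrine and horizontal cell and 10 ganglion cell markers were lower there, which is the direction the fraction labels give. Of 10 bipolar markers, 8 were called lower in control rods and 1, *Lrit3*, higher. The lists were chosen with earlier results of these data known, so these counts are descriptions. The deletion was visible as well. Deposited values of *Pkm* were 52141, 51049 and 54504 in control rods and 23751, 22553 and 22246 in Rodko rods, a log2 difference of -1.20 (limma, adjusted p = 5.36e-05). In retina they were 31190, 34234 and 31548 in control and 20107, 20328 and 21154 in Rodko mice (log2 difference -0.65, limma, adjusted p = 0.0219), a call that was lost when any 1 of 5 of the 6 retina libraries was left out. The values cover all splice forms of *Pkm*.

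To compare rods with retina, the reads were put on a common scale with edgeR's TMM factors and are given as scaled reads, that is, reads in a library of average effective size. All 10 factors were higher in rods than in retina in both genotypes on this scale, with *Neurod1* in Rodko mice falling just below 0 on 2 other scales. *Nrl*, *Esrrb*, *Nr2e3* and *Crx* had the highest ratios. The rise was between 1.52-fold (*Neurod1*) and 3.99-fold (*Nrl*) in control mice. In that comparison 23.5% of the 25584 genes tested were called higher in rods and 35.5% lower. In Rodko mice all 10 were again called higher, where 23.9% of all genes were called higher and 35.1% lower. The median gene stood at a log2 ratio of -0.37 in control mice and -0.32 in Rodko mice. The members lay between 0.97 and 2.36 above it in control mice, a distance that depends on the filter. Among genes with at least 10 reads in every library, the median gene in control mice was 0.24 and the lowest member 0.60. In bulk samples such as the retina, fewer cells of a type and less RNA per cell cannot be told apart.

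**Figure D1:**
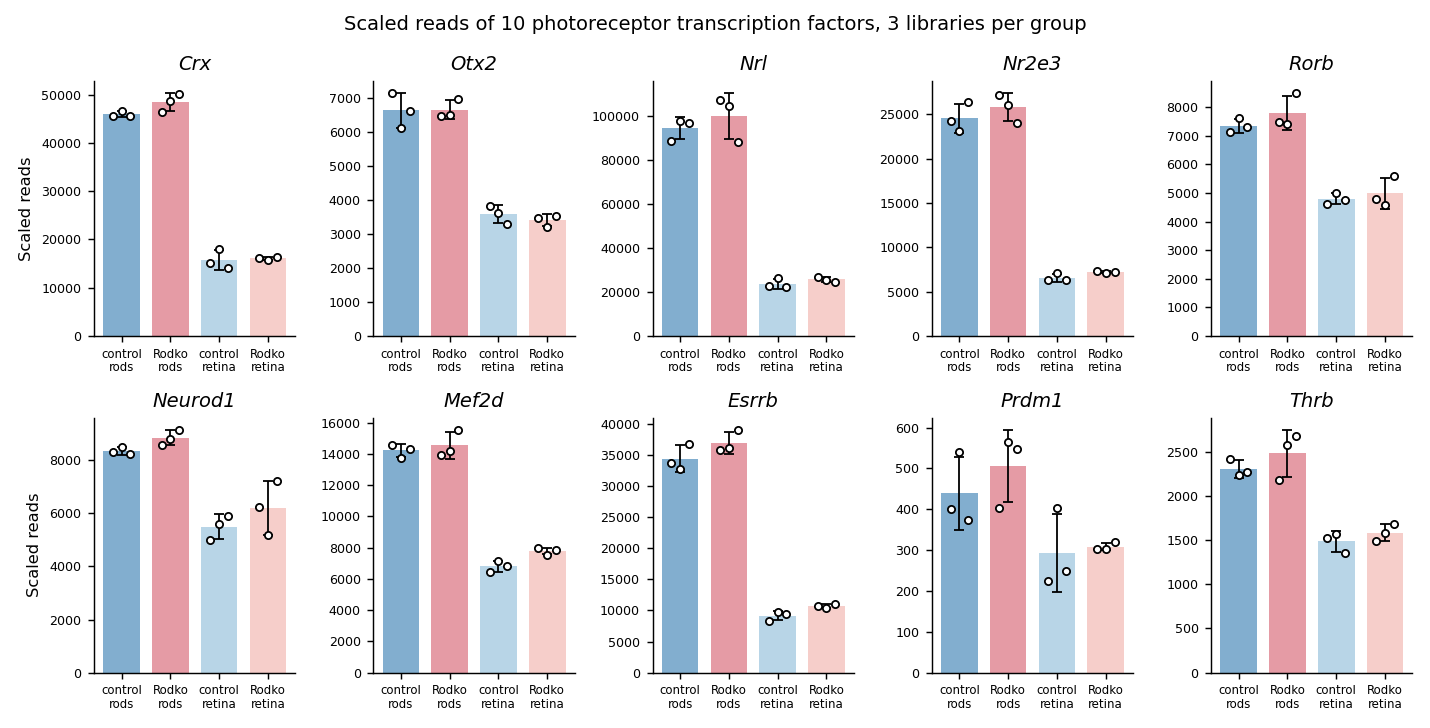
Scaled reads (vertical axes, each starting at 0) of each factor in the 12 libraries, with 3 libraries in each of 4 groups. Bars are means, error bars standard deviations and circles single libraries. On this scale, in every panel except that of *Prdm1*, the 6 rod libraries lie above the 6 retina libraries.

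Of the homeobox pair at the head of the network, *Crx* had 45592, 46679 and 45593 scaled reads in control rods and 46452, 48748 and 50120 in Rodko rods. In retina it had 15145, 18055 and 14088 in control and 16158, 15787 and 16326 in Rodko mice. Every rod library thus had more than 2 times the level of every retina library, and the log2 ratio was 1.55 ± 0.09 (SE) in control mice (limma, adjusted p = 5.95e-10) and 1.59 ± 0.09 in Rodko mice (limma, adjusted p = 3.51e-10). *Otx2* had 7150, 6137 and 6633 scaled reads in control rods and 3834, 3621 and 3301 in control retina. Its log2 ratio was smaller than that of *Crx*, at 0.89 ± 0.08 (SE) in control mice (limma, adjusted p = 9.79e-08) and 0.97 ± 0.08 in Rodko mice (limma, adjusted p = 3.28e-08). An RNA on the opposite strand, *Otx2os1*, shares 154 exon bases with *Otx2* and had 12.2% as many reads, and whether counting used the strand is not given in the sources used here, so a share of these reads could belong to either gene.

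*Nrl* and *Nr2e3*, which set and keep the rod fate, had high ratios, and *Rorb*, upstream of them, had a low one. *Nrl* had 88673, 97974 and 97020 scaled reads in control rods and 107359, 104847 and 88285 in Rodko rods. Its retina libraries held 22811, 26327 and 22117 in control and 26964, 25588 and 24543 in Rodko mice. The log2 ratio of 2.00 ± 0.10 (SE) in control mice was rank 55 of 25584 genes (limma, adjusted p = 1.74e-10), and in Rodko mice it was 1.96 ± 0.10 (limma, adjusted p = 1.43e-10). *Nr2e3*, the cone gene repressor downstream of *Nrl*, had 24197, 23151 and 26364 scaled reads in control rods and 6256, 7075 and 6326 in control retina. The log2 ratios of *Nr2e3* were 1.91 ± 0.08 (SE) in control mice (limma, adjusted p = 4.21e-11) and 1.84 ± 0.08 in Rodko mice (limma, adjusted p = 3.03e-11). *Rorb*, which acts upstream of both and is also used by neurons of the inner retina, was only 1.53-fold higher in control rods, with 7124 to 7624 scaled reads there against 4629 to 5007 in control retina (limma, adjusted p = 1.04e-05).

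Among the factors of maturation and survival, *Esrrb*, an orphan receptor related to the estrogen receptors, stood with *Nrl* and *Nr2e3*. It had 33723, 32747 and 36844 scaled reads in control rods and 8310, 9672 and 9432 in control retina, a log2 ratio of 1.92 ± 0.08 (SE; limma, adjusted p = 4.76e-11), and the ratio in Rodko mice was 1.78 ± 0.08 (limma, adjusted p = 4.80e-11). *Mef2d*, a MADS box factor that shares enhancers with CRX, was 2.09-fold higher in control rods (13746 to 14583 against 6417 to 7128 scaled reads; limma, adjusted p = 3.30e-09). *Neurod1*, a basic helix-loop-helix factor also found in amacrine cells, had 8306, 8508 and 8236 scaled reads in control rods and 5013, 5584 and 5916 in control retina. Its log2 ratio was 0.60 ± 0.10 (SE; limma, adjusted p = 7.86e-05) in control mice and 0.53 ± 0.10 (limma, adjusted p = 2.79e-04) in Rodko mice. In control mice this was within the standard errors of *Prdm1* (0.61), *Rorb* (0.62) and *Thrb* (0.64), so these 4 have no clear order. *Cerkl*, on the same strand, shares 201 exon bases with *Neurod1* and had 7.80% as many reads.

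The last 2 factors are known best from other stages or cells than the mature rod. *Prdm1* had the fewest reads, with 401, 541 and 374 scaled reads in control rods and 225, 403 and 249 in control retina. One control retina library was thus above 2 of the control rod libraries, and the log2 ratio of 0.61 ± 0.20 (SE; limma, adjusted p = 0.0136) was no longer called without control rods replicate 2 (0.43, adjusted p = 0.0752), without control retina replicate 1 (0.45, adjusted p = 0.0828) or without control retina replicate 3 (0.52, adjusted p = 0.0616). In Rodko mice the libraries did not overlap (403, 565 and 548 against 303, 303 and 319 scaled reads), and the log2 ratio was 0.70 ± 0.20 (SE; limma, adjusted p = 0.00613). *Thrb*, read here as the sum of its receptor isoforms, had 2420, 2234 and 2270 scaled reads in control rods and 1526, 1574 and 1354 in control retina, a log2 ratio of 0.64 ± 0.09 (SE; limma, adjusted p = 1.65e-05). Of 12 genes known from cones, 10 were called lower in control rods and 1 higher, so on this scale *Thrb* moved in the opposite direction to most of that list. With total reads or deposited values as the scale, the cone counts were the same. The log2 ratio of *Thrb* was then 0.09 (limma, adjusted p = 0.412) and 0.04 (limma, adjusted p = 0.712), not called.

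**Figure D2:**
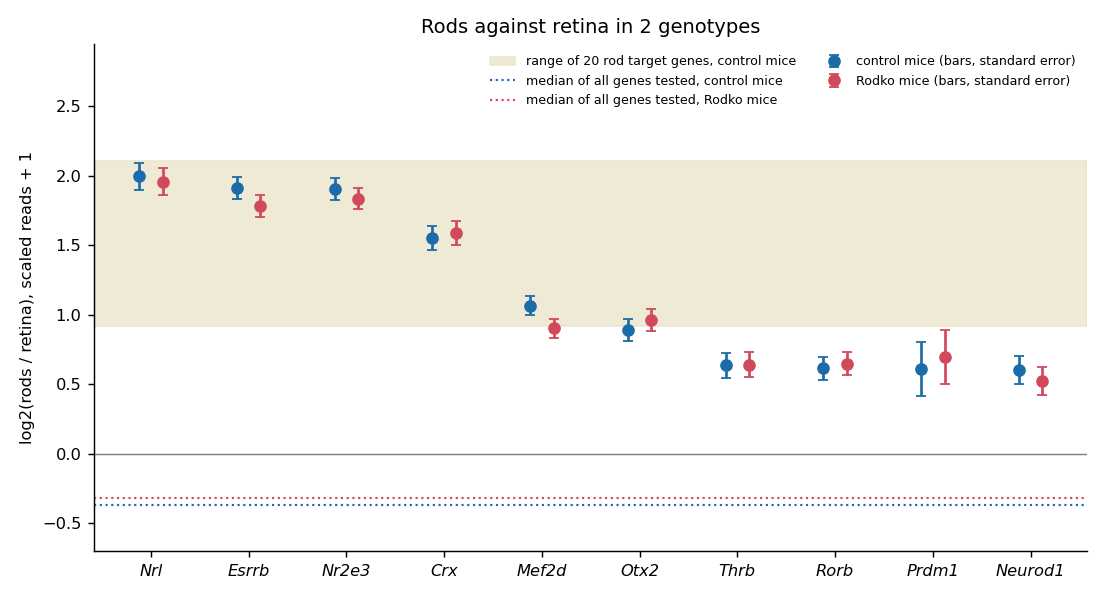
Log2 ratio of rods to retina for each factor (vertical axis, scaled reads plus 1) in control and Rodko mice, with standard errors. Dotted lines are the medians of all genes tested (-0.37 and -0.32) and the shaded band spans the 20 rod target genes in control mice, from 0.92 upwards. *Nrl*, *Esrrb*, *Nr2e3*, *Crx* and *Mef2d* lie in the band in control mice and the other 5 lie below it.

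The size of these ratios depended on the scale. With only the total reads as the scale, the median gene fell to -0.76 in control and -0.74 in Rodko mice and 6 of the 10 factors were called higher in each, while over all genes 2184 were called higher and 12706 lower in control mice and 2198 and 12648 in Rodko mice. With the deposited values, which the authors scaled within each fraction, the medians were -0.80 and -0.74 and again 6 were called higher, against 1942 higher and 13144 lower over all genes in control mice and 2076 and 12814 in Rodko mice. The 4 that lost the call under both were *Rorb*, *Neurod1*, *Prdm1* and *Thrb*, which then stood between 0.01 and 0.11 on the log2 scale except *Neurod1* in Rodko mice, which was -0.06 with total reads and -0.08 with deposited values. Each of the 10 factors kept a ratio higher than that of the median gene on every scale. A change of scale moves a factor and the median gene by nearly the same amount, so this is no separate check.

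Ratios within a library do not depend on the scale. Taken as a percentage of the *Crx* reads of the same library, *Nrl* ranged from 176% to 231% in rods and from 146% to 167% in retina, so the factors did not rise evenly with *Crx*. *Nr2e3* ranged from 48.0% to 58.6% in rods and from 39.2% to 45.4% in retina. *Esrrb* ranged from 70.2% to 80.8% in rods and from 53.6% to 67.2% in retina. For these 3 the ratio to *Crx* was 1.33, 1.23 and 1.21 times as high in rods as in retina. For the other 6 it was lower in rods. *Neurod1* ranged from 18.1% to 18.5% of *Crx* in rods and from 30.9% to 44.2% in retina, *Rorb* from 15.2% to 16.9% against 27.7% to 34.3%, and *Otx2* from 13.1% to 15.7% against 20.1% to 25.3%. *Mef2d* ranged from 29.1% to 32.0% against 39.5% to 49.2%, *Thrb* from 4.69% to 5.36% against 8.72% to 10.3%, and *Prdm1* from 0.820% to 1.16% against 1.49% to 2.23%. In none of the 9 did the 6 rod and the 6 retina libraries overlap, and in all 9 the genotypes overlapped within each fraction. The narrow spread of *Neurod1* against *Crx* in rods was not seen in retina.

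**Figure D3:**
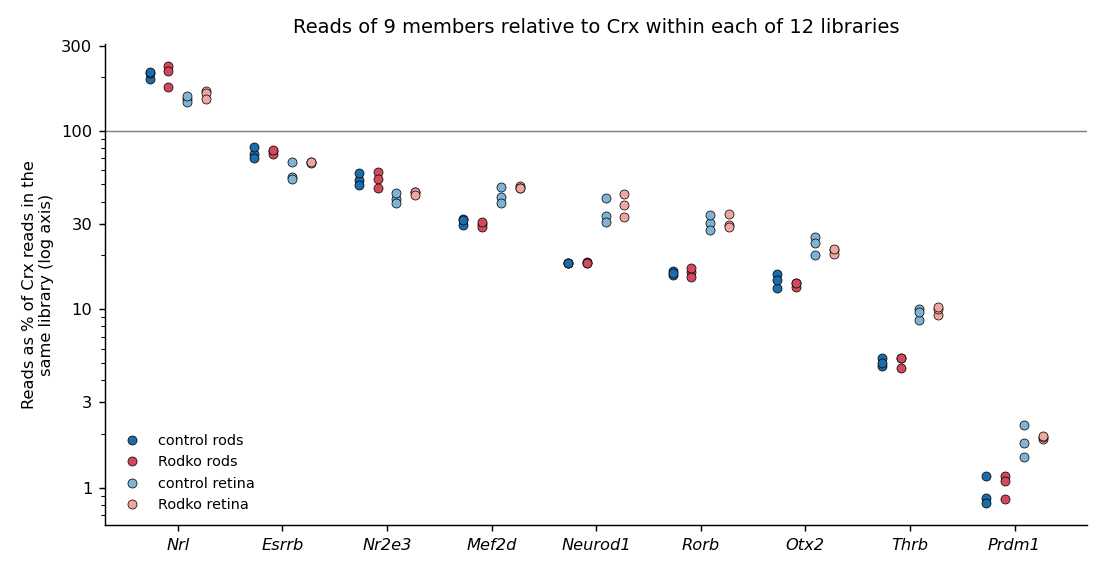
Reads of the other 9 factors as a percentage of *Crx* reads in the same library (vertical axis, logarithmic), with 3 libraries in each of 4 groups and the line at 100%. *Nrl*, *Esrrb* and *Nr2e3* are higher in rods, the other 6 are lower in rods, and the genotypes overlap within each fraction.

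Levels of different genes were compared as scaled reads per kilobase of exon. In control rods *Nrl* was the most abundant factor at 16621 ± 899 (SD, n = 3) and *Crx* followed at 14543 ± 199. *Nr2e3* had 7293 ± 486, *Esrrb* 5695 ± 354 and *Neurod1* 3060 ± 51.8 scaled reads per kilobase. Further down the order stood *Mef2d* at 2376 ± 71.7, *Otx2* at 1573 ± 120, *Rorb* at 663 ± 23.0, *Thrb* at 312 ± 13.3 and *Prdm1* at 78.6 ± 16.1, so that the first and last level were 211-fold apart. Each neighbouring pair was separated in all 3 control rod libraries. In Rodko rods the order was the same, but *Nrl* and *Crx* overlapped. In retina *Crx* came before *Nrl* (4988 ± 650 and 4175 ± 397 scaled reads per kilobase in control mice, with overlapping libraries), and *Neurod1* came next at 2017 ± 167 beside *Nr2e3* at 1945 ± 135, whose libraries overlapped in both genotypes. The other 6 kept their order in retina. Exon lengths came from GENCODE vM21 and count every annotated exon, so a gene with long exons that are little used is set too low.

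Rodko mice were then compared with control mice, the question being whether loss of PKM2, an enzyme also described as a transcriptional co-activator, goes with a change in the factors that run the photoreceptor programme. None of the 10 factors was called in rods (limma on the log2 of the deposited values plus 1, 20658 genes tested, smallest adjusted p among the members 0.932). Over all genes 0.0194% were called, which is 4 genes, all lower and *Pkm* among them. The 10 differences were all above 0, between 0.01 and 0.22 on the log2 scale with a median of 0.09, where the median gene stood at 0.006. No member had an unadjusted p under 0.05, and 4.77% of all genes did. In rods *Crx* was 1.06-fold (95% interval of the log2 difference -0.10 to 0.27), *Nrl* 1.06-fold (-0.14 to 0.31), *Nr2e3* 1.06-fold (-0.11 to 0.27) and *Esrrb* 1.08-fold (-0.08 to 0.30) of control. The widest interval was that of *Prdm1* (-0.15 to 0.58).

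**Figure D4:**
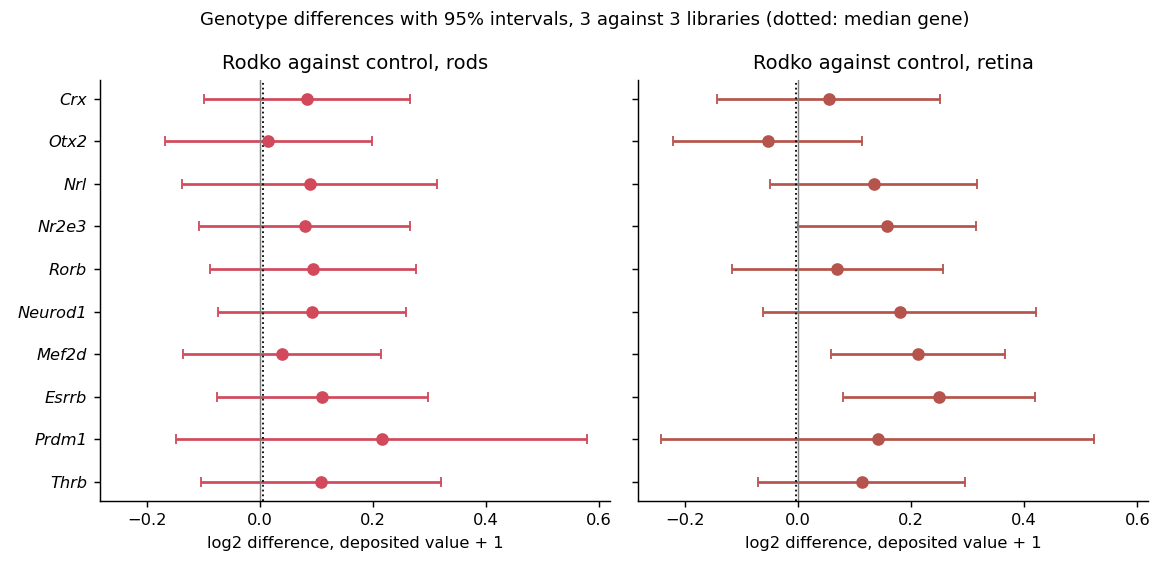
Log2 difference of Rodko against control mice (horizontal axes, deposited value plus 1) for each factor in rods and in retina, with 95% intervals from limma and 3 against 3 libraries. Dotted lines mark the median gene (0.006 in rods and close to 0 in retina). In rods all 10 intervals include 0, and in retina those of *Esrrb* and *Mef2d* lie above 0 without passing the adjustment.

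*Neurod1* was the only factor whose rod libraries did not overlap between the genotypes, with deposited values of 6501, 6672 and 6384 in control and 6686, 6962 and 7204 in Rodko mice (log2 difference 0.09, limma, adjusted p = 0.932). Over all genes 4.49% did not overlap and were higher in Rodko rods and 5.40% did not overlap and were lower. The closest of the 6 values, 6672 and 6686, differed by far less than the spread within either group. No marker of another retinal cell type was called in the same libraries, but the sums of 4 lists were lower in every Rodko library than in every control library. The summed scaled reads of 10 Müller markers were 11456 to 14524 in control rods and 9418 to 11146 in Rodko rods, those of 10 amacrine and horizontal markers 3597 to 4759 and 3373 to 3445, and those of 29 transcription factors of other retinal cells 2181 to 3012 and 1824 to 2016. The sums of 9 microglia and endothelium markers were 393 to 443 and 316 to 363, although 3 of the 9 genes were above 0 and their median log2 difference was -0.05, while those of bipolar, ganglion and pigment epithelium markers overlapped. No gene of these lists was listed at 0 in all libraries of a group. Their part in the small positive differences of the members was not tested. The summed deposited values of the 10 factors themselves were 181720 to 189870 in control rods and 192830 to 201900 in Rodko rods, without overlap. On the common scale the summed reads of the 10 factors overlapped, at 232170 to 244960 and 244910 to 255840. How often the sum of a list separates between 3 and 3 libraries was not counted.

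In retina none of the 10 was called either (25590 genes tested, smallest adjusted p among the members 0.947, against 0.00391% of all genes called, which is *Pkm* alone). *Esrrb*, *Mef2d* and *Nr2e3* were higher in every Rodko library than in every control library, where 4.53% of all genes did not overlap and were higher and 4.76% did not overlap and were lower. *Esrrb* had deposited values of 9737, 11458 and 11159 in control retina and 12754, 12399 and 13229 in Rodko retina. Its difference of 1.19-fold (95% interval of the log2 difference 0.08 to 0.42, unadjusted p = 0.00732) did not pass the adjustment (limma, adjusted p = 0.947). *Mef2d* had 7519, 8444 and 8084 in control and 9411, 8957 and 9458 in Rodko retina, 1.16-fold higher with an interval of 0.06 to 0.37 (unadjusted p = 0.0112; limma, adjusted p = 0.947). *Nr2e3* had 7331, 8381 and 7484 in control and 8689, 8499 and 8634 in Rodko retina, 1.12-fold of control (unadjusted p = 0.0507; limma, adjusted p = 0.947). It lies on chromosome 9 like *Pkm*, with 3 protein-coding genes between them in GENCODE vM21 (GRCm38), and the part of this position in its value was not tested.

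Of the 10 members, 9 were above 0 in retina, with a median of 0.14 on the log2 scale and *Otx2* at -0.05 as the exception. *Esrrb* and *Mef2d* were the 2 members with an unadjusted p under 0.05, as were 4.18% of all genes. None of the 20 rod target genes was called, and 18 were above 0 with a median of 0.09 in retina and 17 with a median of 0.04 in rods. None of the 12 cone genes was called either. In retina 1 of them was above 0 with a median of -0.12, and their summed scaled reads were 22476 to 24438 in control and 20046 to 20964 in Rodko mice. In rods 2 of 12 were above 0 with a median of -0.10, and the sums overlapped, with 14341 to 20766 in control and 14297 to 16576 in Rodko mice. Whether the genotype difference of a factor was not the same in rods and retina was tested directly. No member was called, and no gene of all 25584 was (0%) in the limma fit, where 4.41% of all genes had an unadjusted p under 0.05. DESeq2 called 1 gene, *Pkm* itself. The largest of these differences among the members was that of *Mef2d*, which was -0.17 ± 0.10 (SE) on the log2 scale (limma, adjusted p = 0.978).

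The targets, partners and relatives of the 10 factors were counted in control mice for comparison. Of the 20 rod genes regulated by CRX, NRL and NR2E3, all were called higher in rods (19 with total reads or deposited values as the scale), with a median log2 ratio of 1.90. *Gnat1*, the rod transducin subunit (2.10), was among the highest and *Abca4*, a retinoid flippase (1.42), and *Rp1*, an axonemal protein (0.92), were lowest. The ratios of *Nrl*, *Esrrb* and *Nr2e3* thus lay close to the median of the targets, while *Otx2*, *Thrb*, *Rorb*, *Prdm1* and *Neurod1* lay below the lowest target. Among the cone genes, whose median was -0.70, *Guca1a*, which rods use too, had the highest ratio (1.64) and *Gnb3*, a cone transducin subunit, the next (0.13, not called). *Gnb3* varied widely between libraries, with 5521 ± 2693 scaled reads (SD, n = 3) in control rods and 4596 ± 837 in control retina. *Cngb3*, a cone channel subunit, and *Kcne2*, a potassium channel subunit, had the lowest ratios (-1.08 and -1.15).

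Of 23 cofactors and other regulators of photoreceptor genes, 10 were called higher and 8 lower, with a median of 0.03. *Samd11* and *Samd7*, Polycomb-associated proteins of photoreceptors, were highest at 1.65 and 1.56. *Tbx2* and *Nr2f1*, which pattern the retina, were lowest at -2.75 and -2.18. Of 19 paralogues of the 10 factors, 5 were called higher and 10 lower, and the median was -1.02. *Mef2c*, a relative of *Mef2d*, was highest at 1.45, with 5195 ± 176 scaled reads (SD, n = 3) in control rods and 1907 ± 131 in control retina. *Mef2b* followed at 1.19, on means of 39.0 and 15.3 scaled reads. *Neurod4*, which bipolar precursors use, was lowest at -3.36. *Neurod6*, next to it, had few reads, with 2.17 ± 2.51 scaled reads (SD, n = 3) in control rods and 20.5 ± 5.96 in control retina. With total reads as the scale, 1 paralogue was called higher and 13 lower, and 7 of the cofactors were called higher and 12 lower.

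**Figure D5:**
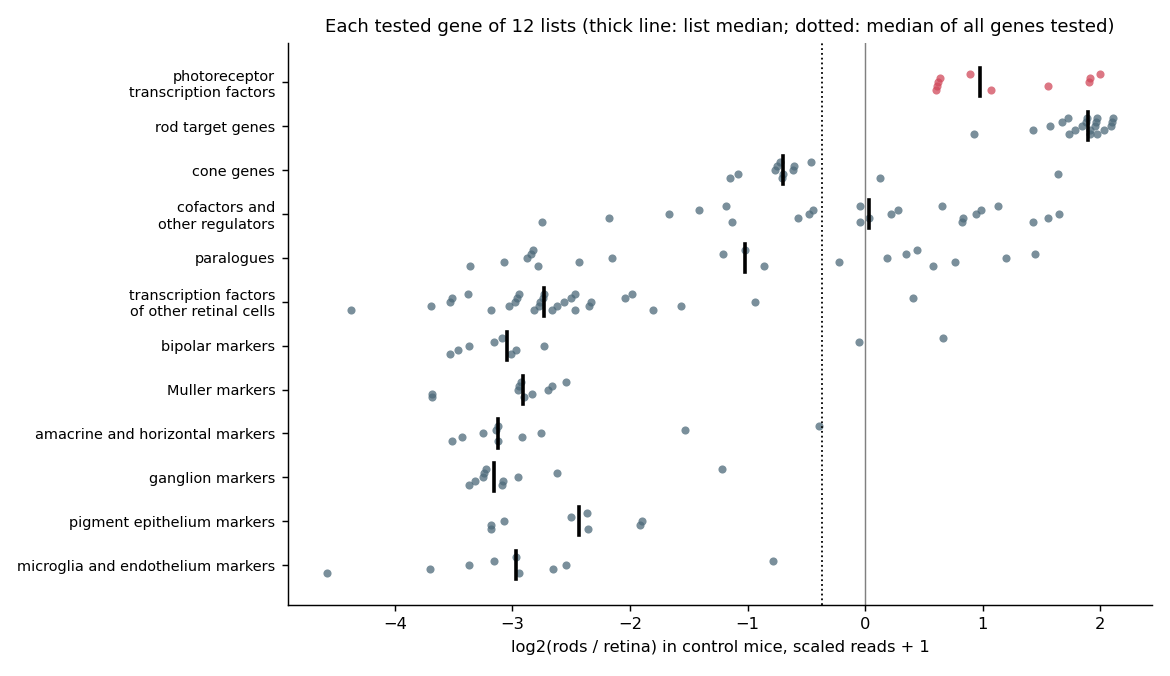
Log2 ratio of rods to retina in control mice (horizontal axis, scaled reads plus 1) for every tested gene of 12 lists, 1 point per gene, with the list median as a thick line and the median of all genes tested as a dotted line at -0.37. The 10 photoreceptor factors lie between 0.60 and 2.00 and overlap the rod targets, whose median is 1.90, while the transcription factors of other retinal cells have a median of -2.73.

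Transcription factors of other retinal cell types had a median of -2.73, and 27 of 29 were called lower in rods and none higher. *Satb1* was closest to 0 among those called (-0.94), *Onecut2*, a factor of horizontal and ganglion cells, was lowest at -4.38 and *Vsx1*, a factor of cone bipolar cells, was next at -3.69. *Ptf1a*, an amacrine and horizontal determinant, stood highest by its ratio but had means of only 2.14 and 1.04 scaled reads. 

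The genes whose log2 scaled reads ran most closely with each factor over the 12 libraries, among 11137 genes with a mean of at least 100 scaled reads, were found by Pearson correlation. The points share their libraries and fall into rods and retina, so these values describe which genes have a like ratio between the fractions and like library deviations. *Crx* was closest to *Lbhd1* (r = 0.9993) and *Gnb5*, a regulator of phototransduction shut-off (0.9987). For *Nrl*, *Unc119*, a photoreceptor trafficking protein, was among the closest (0.9981). *Nr2e3* was closest to *Slc25a33* (0.9992) and *Prph2*, a structural protein of outer segment discs (0.9984). *Esrrb* and *Mef2d* shared *Zc3h18* (0.9980 and 0.9973) beside *Abcf1* for *Esrrb* (0.9985) and *Zfp516* for *Mef2d* (0.9968).

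The remaining factors had somewhat lower best correlations. *Otx2* was closest to *Gm26954* (0.9966) and *Eif4b*, a translation initiation factor (0.9963). *Thrb* was closest to *Arfgef1* (0.9919) and *Slc44a1* (0.9917), and *Rorb* to *Upf1*, a nonsense-mediated decay helicase (0.9909), and *Zfp24* (0.9905). The lowest values were those of *Prdm1*, with *Dgkd* and *Kdm2a* (0.9769 for both), and of *Neurod1*, with *Tent4a* (0.9680) and *Ip6k2* (0.9667). For *Prdm1* this came with the fewest reads of the 10, and for *Neurod1* with the largest spread between Rodko retina libraries among the 10 (coefficient of variation 16.4%). The coefficient of variation of *Neurod1* was 8.30% in control retina, 1.69% in control rods and 3.22% in Rodko rods. *Neurod1* also had low log2 ratios of rods to retina, at 0.60 in control and 0.53 in Rodko mice. The part of reads, spread and ratio in these correlations was not tested.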

How the data were processed

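RNA from rod polyribosomes and from whole retinal lysate was measured in 12 libraries, 3 for each genotype and fraction. The deposited values are a signal per Ensembl gene, namely reads divided by a size factor that the authors computed within the 6 rod and the 6 retina libraries separately, rounded to 1 decimal. The submitters' processing notes name CASAVA 1.8.2, HISAT2, DESeq2, edgeR and the build GRCm39 without their roles. The annotation and strand used in counting are not given in the sources used here. All positive values (100%) were whole multiples of the value of 1 read within a tolerance of 0.051, so read counts were recovered, and they gave between 13458890 and 22790074 reads a library. The precision of low genes follows from these counts.

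Genotypes were compared within each fraction on log2(deposited value + 1) with limma 3.58.1 under R 4.3.3, its variance trend switched on, leaving out genes with a mean under 1. Rods and retina, and the difference between the genotype effects, were compared in 1 limma fit of all 12 libraries on recovered reads scaled by TMM factors (edgeR 4.0.16), also as log2(scaled reads + 1), a scale that understates the change of low genes. The Benjamini-Hochberg adjustment ran over all genes tested, and an adjusted p below 0.05 was called. The scripts were tested on simulated data. As count tests on the recovered reads, edgeR's quasi-likelihood test called 4 genes in rods and 1 in retina between the genotypes, and DESeq2 (1.42.0) called 7 and 1. The alternatives were other pseudocounts, filters, scales and tools, a replicate block, leaving out each library and, chosen after seeing the data, limma without the variance trend. Within a group no library was a repeat of another, since counts of libraries of 1 group differed by chi-square values of 7.16 to 27.1 per gene.

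Rods and retina of the same genotype and number deviated together, with correlations of 0.145 to 0.344 for the 6 same-numbered pairs and of -0.299 to -0.0233 for the others, so the pairing, which comes from the numbers in the labels and these values, was fitted as a replicate block. It changed no call of a member.

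The members and lists were chosen with earlier results of these data known. All 10 members are named, with *Pkm* as the check of the deletion, from each other list the 2 genes with the highest and the 2 with the lowest ratio of rods to retina in control mice, and for each member the 2 genes with the highest Pearson correlation over the libraries. Some genes that this rule picks are not reported here. Lengths and overlaps of genes are from GENCODE vM21 and start sites from RefSeq, both on GRCm38, matched by identifier or symbol. Columns of identifiers and annotation were used for names only.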

Additional observations from a re-analysis of the deposited data

How the results depend on the processing

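The 10 members were called in neither genotype comparison under any of the 15 alternatives tried for each. For the ratio of rods to retina, 189 of 200 values of members kept their direction and call in control mice and 192 of 200 in Rodko mice. With total reads as the scale, 6 members were called higher in each genotype, *Neurod1* in Rodko mice was -0.0598, and 2184 and 2198 genes of all were called higher in control and Rodko mice, against 6001 and 6108. With the deposited values these were again 6 and 6 members, -0.0787 for *Neurod1*, and 1942 and 2076 genes. With at least 10 reads in every library, 3614 and 3586 genes were called lower, against 9083 and 8992, and the median gene moved to 0.24 and 0.26, a setting that leaves fewer low genes to test.

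In rods, 7 genes were called lower in Rodko mice by DESeq2, 18 in 1 fit of 12 libraries and 0 without the variance trend, against 4. In retina no gene (0) was called lower with at least 10 reads in every library. Leaving out 1 library gave 0 to 4 genes higher and 2 to 4 lower in rods, and 0 to 4 higher and 0 to 2 lower in retina. The replicate numbers did not pair the genotypes (correlations of -0.227 to 0.0713 for same-numbered libraries), and with a replicate block 4 genes were called higher in rods and 0 lower in retina. Between rods and retina, where the numbers did pair, the replicate block changed no other call of a member. The call of *Pkm* was lost in rods without the variance trend (adjusted p = 0.0784) and in retina with at least 10 reads (0.0933), with the block (0.157) and without the trend (0.277).

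Differences near 0 changed sign. For *Thrb* the difference between the genotype effects was -0.0103 with RLE scaling, -0.0308 with total reads, -0.0045 with deposited values, -0.0115 with edgeR and -0.0044 with DESeq2, against 0.0035, and for *Rorb* it was -0.0020 with total reads. DESeq2 called 1 gene lower for that difference. Leaving out 1 library moved it over 0 for *Crx* (-0.0640 to 0.115), *Neurod1* (-0.204 to 0.0354), *Nrl* (-0.114 to 0.0591), *Prdm1* (-0.171 to 0.259), *Rorb* (-0.0289 to 0.119) and *Thrb* (-0.0476 to 0.0765). The same held in retina for *Crx* (-0.0212 to 0.159), *Prdm1* (-0.0284 to 0.398) and *Rorb* (-0.0253 to 0.133), and in rods for *Mef2d* (-0.0120 to 0.0754) and *Otx2* (-0.0375 to 0.0714). The cause of these changes was not tested.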

Other observations

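Markers of the other retinal cells were lower in control rods than in control retina, on the log2 scale of scaled reads. All 10 Müller markers were called lower, from *Clu* (-2.55) and *Rlbp1*, a retinoid carrier (-2.66), to *Abca8a* (-3.68) and *Aqp4*, a water channel of glial endfeet (-3.69). All 10 amacrine and horizontal markers were lower as well, with *Gjd2*, a gap junction gene (-0.39), and *Slc6a9*, a glycine transporter (-1.53), closest to 0 and *Calb2* (-3.43) and *Chat*, the acetylcholine synthase of starburst cells (-3.51), farthest. Of the 10 ganglion markers, all lower, the neurofilament genes *Nefh* (-1.22), *Nefl* (-3.32) and *Nefm* (-3.37) spanned most of the range, and *Rbpms* stood at -2.63. Bipolar markers were split. *Lrit3*, a synaptic protein found in photoreceptors and bipolar cells, was called higher (0.66) and *Prkca* did not pass the test (-0.05), while the other 8 were called lower down to *Gpr179* (-3.46) and *Pcp2* (-3.54).

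The 8 pigment epithelium markers were called lower, with *Lrat* (-1.90) at one end of the range and *Pmel* (-3.18) and *Tyrp1* (-3.18) at the other. *Best1*, near *Lrat*, had 3.89 ± 3.98 scaled reads (SD, n = 3) in control rods and 12.1 ± 1.26 in control retina. Their levels varied between libraries of 1 group, as for *Pmel* with 1713 ± 1943 scaled reads (SD, n = 3) in control retina. Of the 9 microglia and endothelium markers, all lower, *Pecam1* (-0.78) and *Cldn5* (-2.54) were closest to 0 and *C1qa* (-3.70) was among the lowest, and *Cdh5*, an endothelial cadherin, had 1.24 ± 2.15 scaled reads in control rods and 39.2 ± 5.17 in control retina. None of these markers was called between the genotypes by limma in either fraction.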
